A study of Homo sapiens with 38 samples.

Results

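Regulators and markers of the switch between epithelial and mesenchymal states, 10 genes in all, were followed in nuclear and cytoplasmic RNA of HCT116, which derives from a human colorectal carcinoma, and of 4 edited lines made from it. The genes were ZEB1, ZEB2, SNAI1, SNAI2 and TWIST1, which encode transcription factors, VIM and FN1, which encode mesenchymal proteins, and CDH1, ESRP1 and ESRP2, which are epithelial genes. They were taken by name and are 10 of 58425 genes with a transcript in the tables. The groups were wild type, AGO1 knockout, AGO2 knockout, AGO1/2 knockout and AGO1/2/3 knockout cells, grown in the same McCoy's medium with serum, and each was sampled as nuclei and as cytoplasm in 3 libraries. Every genotype was 1 cell line, the wild-type libraries came from passages 27, 28 and 29, and those of the edited lines from passages 6 to 14 (6 to 8 for AGO1, 8 to 10 for AGO2, 9 to 11 for AGO1/2, and 11, 12 and 14 for AGO1/2/3). Clone, passage number and genotype therefore cannot be told apart, and the libraries of a group are passages of 1 culture, so that p-values measure the spread between passages.

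Argonaute proteins carry microRNAs to target sites, most of them in 3′ untranslated regions (3′ UTRs), where pairing of the microRNA seed (bases 2 to 8) represses the mRNA. The miR-200 family is the best known brake on ZEB1 and ZEB2 in epithelial cells, and the ZEB proteins in turn bind E-boxes and repress CDH1, which encodes E-cadherin, the ESRP genes and the miR-200 genes themselves, so that either side can hold the other down. ESRP1 and ESRP2 are splicing regulators that keep the epithelial isoforms of many transcripts.

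The microRNA sequences are shown first because the seeds, printed in capitals, divide the family into a pair of groups that read different sites. They are the mature sequences of RefSeq for GRCh38.p14, all on the plus strand, with chromosome and position after each name.
hsa-miR-200b-3p, chr1:1167160-1167181: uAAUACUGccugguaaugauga
hsa-miR-200c-3p, chr12:6963742-6963764: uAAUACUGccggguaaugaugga
hsa-miR-429, chr1:1169055-1169076: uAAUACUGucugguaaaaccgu
hsa-miR-200a-3p, chr1:1167916-1167937: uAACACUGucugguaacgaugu
hsa-miR-141-3p, chr12:6964155-6964176: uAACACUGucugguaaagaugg
hsa-miR-205-5p, chr1:209432166-209432187: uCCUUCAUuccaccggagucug
The first 3 share a seed that pairs with CAGTATT, the next pair a seed that pairs with CAGTGTT, and miR-205, which also targets ZEB mRNAs, pairs with ATGAAGG.

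These 7 letters were searched in the 3′ UTR of 1 representative transcript per gene in GENCODE release 44. CAGTATT occurred in 16.384% of 18780 3′ UTRs and CAGTGTT in 18.466%. The ZEB1 3′ UTR (2540 bases) held 6 matches to the first and 3 to the second, and that of ZEB2 (5370 bases) 5 and 4. As many as 9 matches were present in 0.043% of all 3′ UTRs. That share does not allow for length, and the median 3′ UTR had 1088 bases. Per kilobase, ZEB1 held 3.543 matches and ZEB2 1.676, against 2.899 in FN1, 1.268 in ESRP1 and 0.827 in SNAI2. ZEB1 also held 1 match for miR-205, a site present in 11.603% of 3′ UTRs. FN1 had 2 matches to CAGTATT in 690 bases (10.405% of 3′ UTRs had as many matches in all), ESRP1 1 to each and SNAI2 1, whereas SNAI1, TWIST1, VIM, CDH1 and ESRP2 had none. The following windows of 22 bases on GRCh38, read along the transcript with the match in capitals, show the first matches in ZEB1 (plus strand), a pair from ZEB2 and both from FN1 (minus strand).
ZEB1, chr10:31527622-31527643: ttttatcttatCAGTATTatca
ZEB1, chr10:31527716-31527737: taaatccgcttCAGTATTttat
ZEB1, chr10:31528035-31528056: atcatcagaatCAGTGTTtgtg
ZEB1, chr10:31528145-31528166: gtgccatttctCAGTATTttca
ZEB2, chr2:144389049-144389070: ctaccatacatCAGTATTttta
ZEB2, chr2:144389233-144389254: aaaattttgtaCAGTGTTaagg
FN1, chr2:215361300-215361321: tcaataccgctCAGTATTttaa
FN1, chr2:215361014-215361035: tcaatttttccCAGTATTttta
A match describes the letters of the transcript and does not show that a microRNA was bound there, since binding data were not analysed here. The E-box CACCTG, on either strand, was looked for in promoter windows of RefSeq, of which 20.592% of 35116 held it. It was present in 2 of the 7 windows of ZEB1 and in none of the single windows of ZEB2, VIM and FN1. Promoters of SNAI1, SNAI2, TWIST1, CDH1, ESRP1 and ESRP2 were not searched here.

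Nuclear libraries held 20431557 to 54097984 estimated reads and cytoplasmic libraries 39476205 to 79731793, with wild-type libraries the shallowest of each fraction (at most 26536692 and 43281746). Levels are given as TPM (abundance per transcript length, scaled to the same total in every library), and differences as log2 fold changes of gene counts from edgeR with their standard errors (SE), taken as called where the p adjusted over all genes tested was 0.05 or lower. Both express RNA relative to the rest of its own library, and in bulk RNA fewer cells with a transcript and less of it per cell cannot be told apart. The 2 scales differ in centre. Over all genes the median difference from wild type lay between -0.059 and -0.001 in the counts, and in log2(TPM + 0.1) with limma it was -0.121 in nuclear AGO1/2 and -0.255 in nuclear AGO1/2/3 libraries, and -0.358 and -0.23 in the cytoplasm of these lines, a shift that TPM levels set below wild type include. Of the genes called against wild type 34.5% to 50.3% were higher by edgeR, and 5.99% to 17.7% in the cytoplasm and 5.90% to 42.7% in nuclei by limma on log2(TPM + 1).

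AGO1 mRNA was lower in the 3 lines edited in that gene, at cytoplasmic means of 0.886 to 0.920 TPM against 12.9 in wild-type cells. Cytoplasmic AGO2 was 36.0 TPM in wild type and 18.5 TPM in the AGO2 line but 28.9 and 27.1 TPM in the double and triple knockouts, and cytoplasmic AGO3 was 8.64 TPM in the triple knockout against 8.39 in wild type, so mRNA does not by itself mark these edits. Of 5 colon epithelium markers 4 reached 1 TPM in every group, and the 5 summed to 945 to 1020 TPM in wild-type, 1990 to 2240 in AGO1/2 and 1560 to 1800 in AGO1/2/3 nuclei, against 960 to 1040, 638 to 733 and 805 to 986 in the cytoplasm. Fibroblast markers summed to 0.648 to 6.36 TPM with DCN at 0 throughout, and endothelial markers to at most 0.182 TPM. Leukocyte markers summed to at most 0.231 TPM in wild-type, AGO1 and AGO2 libraries and to 0.756 to 2.03 TPM in AGO1/2 and AGO1/2/3 libraries, where LYZ supplied 0.928 to 2.03 TPM in nuclei and CD3E was at 0 or close to it. The wild-type libraries of passage 29 stood apart with the highest CDH1 and ESRP1 of their group in both fractions, and values without them are given where they matter.

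ZEB1 (ENSG00000148516.23, chromosome 10, 31318495 to 31529814, plus strand), the ZEB factor expressed in these cells, was higher in both lines that lack AGO1 together with AGO2. In the cytoplasm it stood at 1.51, 1.35 and 1.22 TPM in wild-type cells, at 5.50, 4.38 and 5.35 in AGO1/2 cells and at 4.49, 4.56 and 4.5 in AGO1/2/3 cells. AGO1 cells had 2.33, 1.51 and 1.64 TPM and AGO2 cells 1.17, 1.05 and 1.29. The double and triple knockout libraries thus lay above all others, while those of each single knockout overlapped with wild type. The log2 fold changes were 2.29 (SE 0.096, edgeR adjusted p = 3.61e-10) and 1.99 (SE 0.095, adjusted p = 1.35e-09), or 4.88-fold and 3.97-fold. In AGO1 cells the difference was 0.69 (SE 0.095, edgeR adjusted p = 0.00032), and in AGO2 cells it was 0.15 and not called (adjusted p = 0.345). On log2(TPM + 1) and log2(TPM + 0.1) with limma the AGO1 value was 0.25 and 0.38 and not called.

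Nuclear ZEB1 was 4.77, 5.19 and 3.65 TPM in wild-type libraries (193 to 343 estimated reads each), 4.36, 3.12 and 4.16 in AGO1, 2.18, 2.58 and 2.35 in AGO2, 7.43, 10.3 and 8.92 in AGO1/2, and 7.20, 6.90 and 6.20 in AGO1/2/3 libraries. In nuclei the order was double knockout, triple knockout, wild type and AGO1 together, then AGO2, with the AGO2 libraries below all wild-type ones. In cytoplasm the double and triple knockouts had overlapped, as had AGO2 and wild type. The double and triple knockouts differed from wild type by 1.63 (SE 0.11, edgeR adjusted p = 7.94e-09) and 1.34 (SE 0.11, adjusted p = 1.01e-07), that is 3.10-fold and 2.53-fold. The nuclear call in AGO1 cells, 0.39 (edgeR adjusted p = 0.0184), was 0.63 and still called (adjusted p = 0.0381) in protein-coding transcripts only, but it did not hold on other scales, where it was 0.05 with length-scaled counts and -0.18 and -0.22 on the TPM scale with limma, and was lost without AGO1 passage 6 (0.35, adjusted p = 0.0674). The AGO2 value of -0.39 (edgeR adjusted p = 0.0147) was -0.08 (adjusted p = 0.793) when protein-coding transcripts alone were counted, and from -0.30 to -0.29 and not called without AGO2 passage 10 or wild-type passage 27 or 28.

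Much of nuclear wild-type ZEB1 was assigned by Salmon to transcripts without a defined coding sequence. Protein-coding transcripts held 25.9% ± 3.06 (SD, n = 3) of its nuclear TPM in wild-type cells, 50.3% in AGO1, 47.8% in AGO2, 74.2% ± 6.47 in AGO1/2 and 72.6% ± 3.14 in AGO1/2/3 cells, against 73.0% ± 9.78 in wild-type cytoplasm. A model of 570 bases without a defined coding sequence carried 33.9% in wild-type nuclei and 10.5% and 9.87% in the double and triple knockouts, whereas coding models of 5423 and 3217 bases went from 11.5% to 28.5% and 25.5% and from 0% to 20.9% in both. In TPM, coding ZEB1 was 1.18 ± 0.290 (SD, n = 3) in wild-type nuclei, 6.66 ± 1.66 in AGO1/2 and 4.91 ± 0.403 in AGO1/2/3 nuclei, and in coding transcripts the nuclear log2 fold changes were 1.94 and 1.64. ZEB1-202, whose 3′ UTR was searched above, was 887 bases long in the deposited tables, shorter than that 3′ UTR in GENCODE release 44, so its own share (1.34% in wild-type nuclei, 14.0% and 20.7% in the knockouts) rests on a model that lacks most of it.

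**Figure D1:**
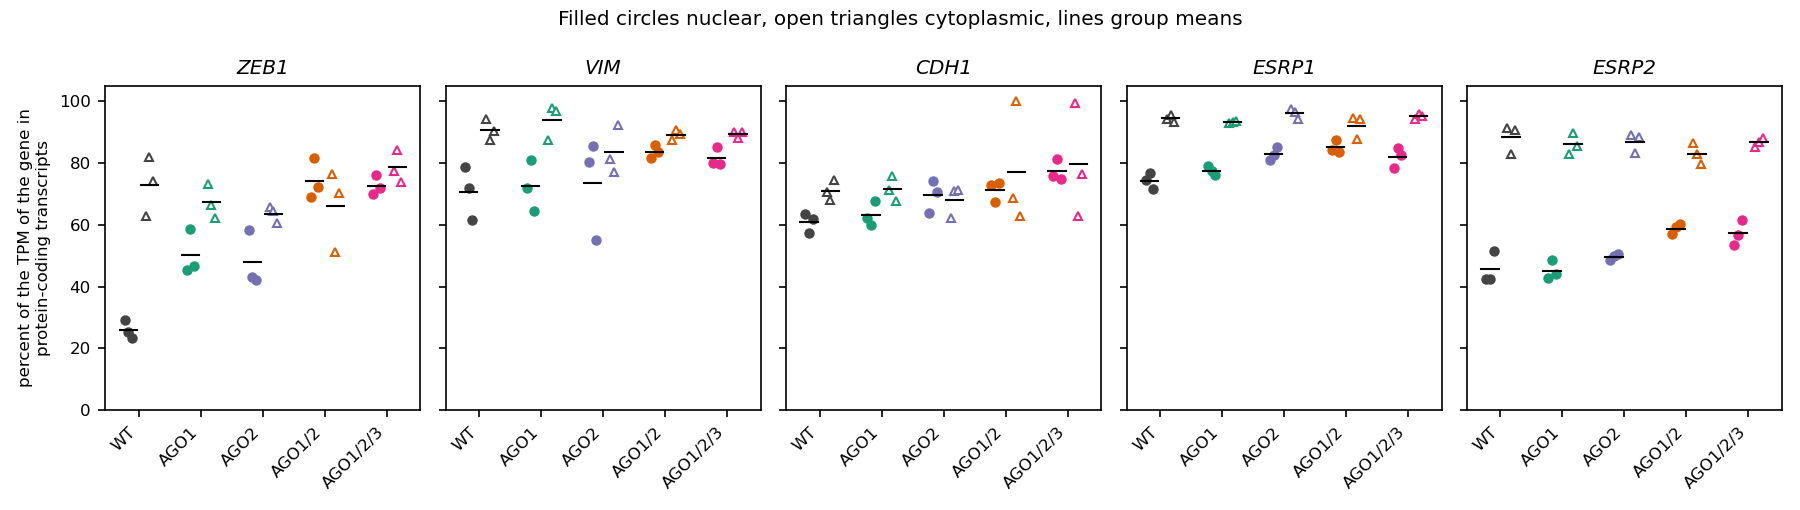
Percent of a gene's TPM in transcripts annotated as protein coding (vertical axis, 0 to 100) for ZEB1, VIM, CDH1, ESRP1 and ESRP2 in each library of the 5 genotypes. Filled circles are nuclear and open triangles cytoplasmic libraries, and lines are means of 3. In nuclei the ZEB1 share is 23.3% to 29.2% in the wild-type libraries and 69.1% to 81.5% in those of the double and triple knockouts, while in the cytoplasm it is 51.2% to 84.4% over all libraries.

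VIM (ENSG00000026025.16, chromosome 10, 17228241 to 17237593, plus strand) encodes vimentin, the intermediate filament protein of mesenchymal cells, and had the largest differences of the 10 genes in the double and triple knockouts. Cytoplasmic VIM was 1.59, 1.13 and 1.79 TPM in wild-type, 2.69, 2.55 and 2.97 in AGO1, 0.935, 1.02 and 0.852 in AGO2, 11.2, 10.9 and 11.8 in AGO1/2, and 14.0, 13.5 and 11.8 in AGO1/2/3 libraries. The 5 lines formed separate sets, the triple knockout just above the double, with the nearest libraries of these 2 lines both 11.8 TPM when rounded. Log2 fold changes against wild type were 3.31 (SE 0.15, edgeR adjusted p = 5.32e-10) in AGO1/2 and 3.34 (SE 0.15, adjusted p = 5.88e-10) in AGO1/2/3 cells, or 9.88-fold and 10.1-fold. A smaller rise of 1.07 (SE 0.14, edgeR adjusted p = 0.00027) was called in AGO1 cells and a fall of -0.49 (adjusted p = 0.0422) in AGO2 cells.

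In nuclei VIM rose from 1.11, 1.66 and 1.54 TPM (54 to 77 estimated reads) to 20.5, 22.3 and 19.8 in AGO1/2 and to 15.2, 15.2 and 15.3 in AGO1/2/3 libraries, and it was 2.37, 1.93 and 2.19 in AGO1 and 1.05, 0.661 and 0.976 in AGO2 libraries. The first 3 knockouts named lay above every wild-type library and the AGO2 libraries below. The log2 fold changes were 3.98 (SE 0.12, edgeR adjusted p = 2.57e-12), 3.73 (SE 0.12, adjusted p = 5.66e-12), 0.86 (SE 0.13, adjusted p = 0.000282) and -0.38 (SE 0.15, adjusted p = 0.0497). The AGO2 value lost its call in both fractions under several alternatives. In nuclei this happened without wild-type passage 28 (-0.19, edgeR adjusted p = 0.394) or AGO2 passage 9 (-0.22), and without wild-type passage 29 or AGO2 passage 10 the value was as large (-0.40 and -0.41) but not called. In cytoplasm this happened without wild-type passage 27 or 29 (-0.28, adjusted p = 0.206) or any AGO2 library.

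The antisense gene VIM-AS1 went the same way. It was 0.443, 0.389 and 0.556 TPM in wild-type nuclei, 4.27, 4.41 and 4.39 in AGO1/2 and 3.70, 3.51 and 3.52 in AGO1/2/3 nuclei, with log2 fold changes of 3.17 and 3.09 in nuclei and 4.0 and 3.75 in cytoplasm, all called. Whether the quantification used strand is not given in the sources used here, so reads of VIM and VIM-AS1 where they overlap may not be told apart. ZEB1-AS1 did not follow ZEB1: its values were -0.41 (edgeR adjusted p = 0.031) and -0.11 in nuclei and -0.06 and 0.14 in cytoplasm. ZEB2-AS1 had too few reads to be tested.

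CDH1 (ENSG00000039068.20, chromosome 16, 68737292 to 68835537, plus strand) encodes E-cadherin, the adhesion protein of epithelial junctions, and fell in 3 of the 4 lines. Its cytoplasmic TPM were 10.0, 11.2 and 15.9 in wild-type, 3.82, 4.37 and 5.80 in AGO1, 7.15, 7.04 and 8.03 in AGO2, 0.896, 0.681 and 1.78 in AGO1/2, and 1.56, 1.90 and 2.25 in AGO1/2/3 libraries. Every knockout library was below every wild-type library, and the double and triple knockouts overlapped. The log2 fold changes were -1.28 (SE 0.25, edgeR adjusted p = 0.00384), -0.55 (not called, adjusted p = 0.149), -3.08 (SE 0.27, adjusted p = 4.15e-07) and -2.40 (SE 0.26, adjusted p = 5.21e-06) in that order. The last values are an 8.45-fold and a 5.29-fold fall.

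Nuclear CDH1 was 16.4, 17.7 and 29.8 TPM in wild-type, 7.60, 7.59 and 8.09 in AGO1, 18.6, 16.7 and 17.0 in AGO2, 3.89, 3.23 and 5.34 in AGO1/2, and 6.20, 4.93 and 6.18 in AGO1/2/3 libraries. Only the AGO2 libraries overlapped with wild type. The differences were -1.16 (SE 0.24, edgeR adjusted p = 0.00237) in AGO1, -2.18 (SE 0.25, adjusted p = 1.73e-06) in AGO1/2 and -1.49 (SE 0.24, adjusted p = 8.52e-05) in AGO1/2/3 cells. Without wild-type passage 29 (29.8 TPM) they were -0.75, -1.76 and -1.07, all still called, and the AGO2 value moved from 0.04 to 0.46 (edgeR adjusted p = 0.0485).

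ESRP1 (ENSG00000104413.18, chromosome 8), the most abundant of the 10 in wild-type cells, fell with CDH1. In wild-type cytoplasm it was 35.5, 35.0 and 50.5 TPM, in AGO1 21.9, 23.9 and 25.7, in AGO2 26.6, 28.8 and 28.7, in AGO1/2 4.73, 3.93 and 6.70, and in AGO1/2/3 9.12, 9.06 and 8.52. The wild-type, single, triple and double knockout libraries formed a descending order without overlap between these 4 sets. Against wild type the log2 fold changes of the double and triple knockouts were -2.62 (SE 0.17, edgeR adjusted p = 3.28e-08) and -1.94 (SE 0.17, adjusted p = 6.57e-07), a 6.16-fold and a 3.84-fold fall.

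The nuclear values of ESRP1 were 51.4, 53.4 and 75.1 TPM in wild-type, 35.6, 35.0 and 33.7 in AGO1, 42.4, 43.8 and 39.5 in AGO2, 11.2, 8.75 and 14.9 in AGO1/2, and 15.6, 13.4 and 15.5 in AGO1/2/3 libraries. The double and triple knockouts were far below the rest and overlapped with each other. Their log2 fold changes were -2.21 (SE 0.17, edgeR adjusted p = 3.71e-08) and -1.71 (SE 0.17, adjusted p = 7.20e-07). The AGO1 calls, -0.51 in nuclei (edgeR adjusted p = 0.0319) and -0.62 in cytoplasm (adjusted p = 0.0239), were lost without wild-type passage 29, at -0.27 (adjusted p = 0.167) and -0.39 (adjusted p = 0.0928). They were also lost, at -0.62 to -0.47, without any AGO1 library in nuclei and without AGO1 passage 6 or 7 in cytoplasm. The AGO2 values of -0.16 and -0.29 were not called.

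The paralog ESRP2 (ENSG00000103067.14, chromosome 16, 68229033 to 68238102, minus strand) did not follow ESRP1. Its nuclear TPM were 15.3, 14.3 and 11.4 in wild-type, 14.7, 15.0 and 12.8 in AGO1/2, and 11.9, 12.1 and 10.2 in AGO1/2/3 libraries, and the single knockouts ranged from 13.2 to 17.7. All these sets overlapped with wild type. In counts ESRP2 was higher in AGO1 (0.40, edgeR adjusted p = 0.000727), AGO2 (0.34, adjusted p = 0.00173) and AGO1/2 nuclei (0.24, adjusted p = 0.00833), and 0.13 and not called in AGO1/2/3 nuclei. On log2(TPM + 1) with limma the 3 called values were 0.17, 0.03 and 0.05, none called. In the cytoplasm the wild-type values of 7.93, 7.19 and 6.99 TPM stood above those of AGO1/2 (5.12, 4.77 and 5.25) and AGO1/2/3 (6.04, 6.75 and 5.63), whereas the count-based differences, -0.16 (edgeR adjusted p = 0.0967) and -0.01 (adjusted p = 0.942), were not called. In AGO1 cytoplasm all 3 libraries (8.71, 7.98 and 8.83 TPM) lay above wild type, and ESRP2 was called higher in counts (0.34, SE 0.074, edgeR adjusted p = 0.00792) and with each library left out, while on log2(TPM + 1) with limma it was 0.18 and not called (adjusted p = 0.104). In the double and triple knockouts ESRP2 depended on the scale.

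**Figure D2:**
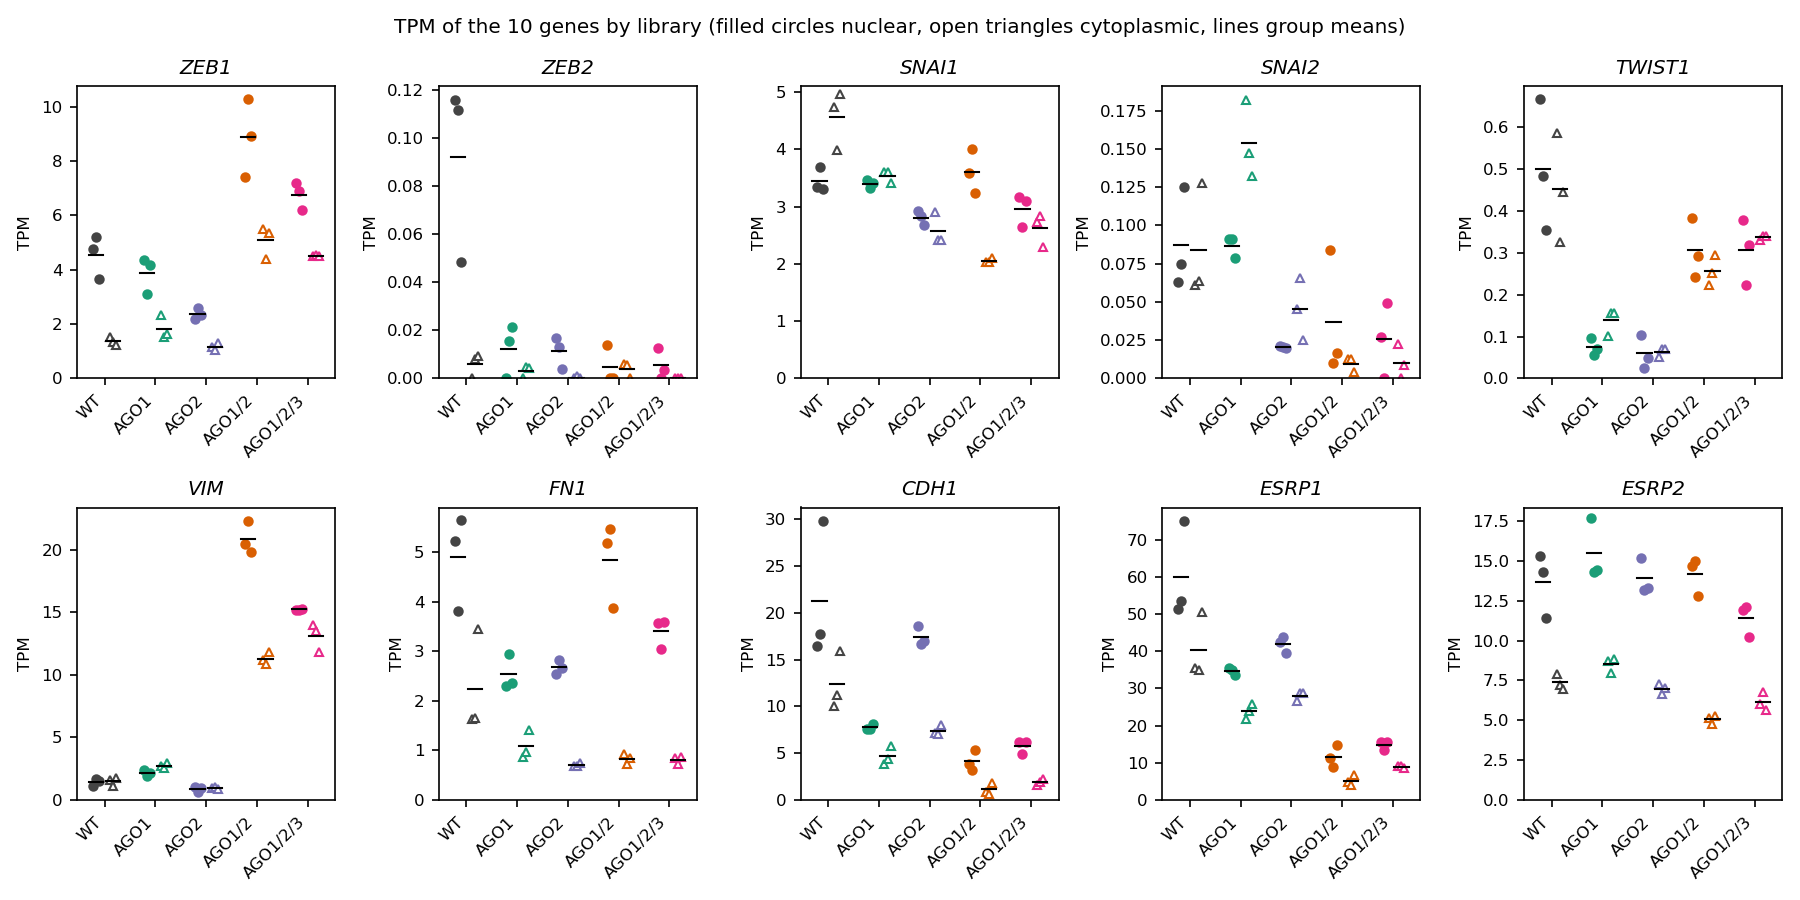
TPM (vertical axis, linear, from 0) of each of the 10 genes in every library of wild type and the 4 knockout lines. Filled circles are nuclear libraries, open triangles cytoplasmic libraries and lines means of 3 libraries. ZEB1 and VIM are highest, and CDH1 and ESRP1 lowest, in the AGO1/2 and AGO1/2/3 lines, with nuclear VIM at 20.9 and 15.2 TPM against 1.44 in wild type.

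SNAI1 (ENSG00000124216.4, chromosome 20, 49982980 to 49988886, plus strand) encodes Snail, another repressor of CDH1. In nuclei it was between 2.65 and 4.01 TPM in all libraries, and none of its 4 differences (0.22, -0.05, 0.08 and 0.00 in the order AGO1, AGO2, AGO1/2, AGO1/2/3) was called. In TPM the AGO2 (2.68 to 2.92) and AGO1/2/3 nuclear libraries (2.65 to 3.16) lay below all wild-type ones (3.3 to 3.7), and the other lines overlapped. In the fit of protein-coding transcripts only, the nuclear differences were 0.14, -0.17, -0.21 and -0.22 in the same order, none called (lowest edgeR adjusted p = 0.0618). SNAI1 has 1 transcript here, a protein-coding one, so its own counts were unchanged. Only the other genes and the scaling of that fit differed. In the cytoplasm it was 4.74, 3.99 and 4.96 TPM in wild-type, 3.61, 3.61 and 3.41 in AGO1, 2.90, 2.42 and 2.41 in AGO2, 2.03, 2.04 and 2.10 in AGO1/2, and 2.74, 2.84 and 2.30 in AGO1/2/3 libraries. All knockout libraries lay below wild type there. The fall was called in AGO2 (-0.60, SE 0.11, edgeR adjusted p = 0.0024), AGO1/2 (-0.73, SE 0.11, adjusted p = 9.02e-05) and AGO1/2/3 cells (-0.55, SE 0.11, adjusted p = 0.0013). SNAI1 was thus not called higher in any line, although its 0.22 in AGO1 nuclei had an unadjusted p below 0.05 by edgeR.

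SNAI2 (ENSG00000019549.13, chromosome 8), which encodes Slug, was scarce. Its cytoplasmic libraries held 6, 7 and 15 estimated reads in wild-type, 24, 28 and 28 in AGO1, 10, 14 and 5 in AGO2, 3, 3 and 1 in AGO1/2, and 5, 0 and 2 in AGO1/2/3 cells. The last pair of lines lay below wild type. Pooled over 3 libraries, 7 reads against 28 gave ratios per library read of 0.133 (95% interval 0.0490 to 0.312, exact binomial, counting error only) and 0.136 (0.05 to 0.318), and edgeR called both falls (-2.66 and -2.72, adjusted p = 0.00393 and 0.00443). In AGO1 cytoplasm all 3 libraries lay above wild type, with 80 reads against 28 and a ratio of 1.62 (1.04 to 2.59), which edgeR did not call. Nuclear SNAI2 (0 to 8 reads per library) did not pass the filter on low counts. Its pooled nuclear ratios were 1.07 (0.532 to 2.22) in AGO1, 0.256 (0.0814 to 0.698) in AGO2, 0.151 (0.043 to 0.438) in AGO1/2 and 0.283 (0.104 to 0.711) in AGO1/2/3 cells.

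TWIST1 (ENSG00000122691.13, chromosome 7, 19020991 to 19117636, minus strand), a bHLH factor, had another set of changes, lower in the single knockouts and not called in the double and triple ones. Nuclear TPM were 0.666, 0.483 and 0.354 in wild-type (16 to 26 reads), 0.0964, 0.0562 and 0.0693 in AGO1, 0.104, 0.0258 and 0.0494 in AGO2, 0.383, 0.242 and 0.292 in AGO1/2, and 0.377, 0.223 and 0.319 in AGO1/2/3 libraries. The single knockouts were below all other libraries. Their log2 fold changes were -2.35 (SE 0.37, edgeR adjusted p = 0.000297) and -2.64 (SE 0.37, adjusted p = 7.12e-05), against -0.53 and -0.45 in AGO1/2 and AGO1/2/3 nuclei, neither called. Cytoplasmic values were -1.44 (edgeR adjusted p = 0.00086), -2.47 (adjusted p = 1.12e-05), -0.33 and -0.16, the first pair called. With 14 and 15 nuclear reads in all 3 AGO2 and AGO1 libraries against 63 in wild type, the counting intervals of the ratios ran from 0.0736 to 0.257 and from 0.0921 to 0.310. Those of AGO1/2 and AGO1/2/3 nuclei (79 and 72 reads in deeper libraries) ran from 0.404 to 0.806 and from 0.426 to 0.864. Those of the cytoplasm ran from 0.548 to 0.916 and from 0.661 to 1.09. Per total read, 3 of these 4 intervals leave out equal levels. The ratios do not use the normalization factors of edgeR, so they are on another scale than its values, none of which was called in these 2 lines.

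FN1 (ENSG00000115414.21, chromosome 2, 215360440 to 215436073, minus strand) encodes fibronectin, a matrix protein commonly used as a mesenchymal marker, and in no line was it called higher. Nuclear TPM were 5.23, 3.81 and 5.66 in wild-type, 2.30, 2.95 and 2.37 in AGO1, 2.55, 2.83 and 2.66 in AGO2, 5.20, 5.47 and 3.88 in AGO1/2, and 3.58, 3.05 and 3.59 in AGO1/2/3 libraries. Single knockouts were lower (-0.85 and -1.0, edgeR adjusted p = 0.00209 and 0.000395), at -0.53 and -0.67 and still called without wild-type passage 29, and the double and triple knockouts were not called (0.08 and -0.28), although the AGO1/2 value was 0.42 (adjusted p = 0.00333) without wild-type passage 29. In the cytoplasm the wild-type values were 1.63, 1.65 and 3.46 TPM, and the knockouts ranged from 0.681 to 1.42. All 4 lines were called lower, at -0.64, -1.21, -0.81 and -1.01 (edgeR adjusted p = 0.0398, 0.000691, 0.00263 and 0.000771), of which the AGO1 value was -0.36 and not called (adjusted p = 0.176) without passage 29 and -0.50 and -0.58 and not called without AGO1 passage 6 or 7, and the AGO1/2 value was -0.53 without passage 29.

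ZEB2 (ENSG00000169554.23, chromosome 2, 144364364 to 144521057, minus strand), which carries as many miR-200 matches as ZEB1, was barely detected. Wild-type nuclei held 7, 7 and 5 reads and knockout nuclei 0 to 3 per library, and cytoplasmic libraries 0 to 3 with all AGO1/2/3 libraries at 0. It did not pass the filter within a fraction, so no knockout was tested. Over the 3 nuclear libraries, AGO1/2 cells had 3 reads against 19, a ratio of 0.0717 (95% interval 0.0136 to 0.244, counting error only), and AGO1/2/3 cells 2, a ratio of 0.0558 (0.00631 to 0.231). AGO1 and AGO2 nuclei were low too, with 5 and 7 reads and ratios of 0.193 (0.0562 to 0.533) and 0.236 (0.0837 to 0.586). Protein-coding transcripts held 0%, 0% and 81.8% of the TPM in wild-type nuclei of passages 27, 28 and 29. In TPM, coding ZEB2 was 0.0133 ± 0.023 (SD, n = 3) there and 0.00468 ± 0.00811 in AGO1/2 nuclei. Unlike ZEB1, ZEB2 was thus not detected at a higher level in the lines without AGO1 and AGO2.

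**Figure D3:**
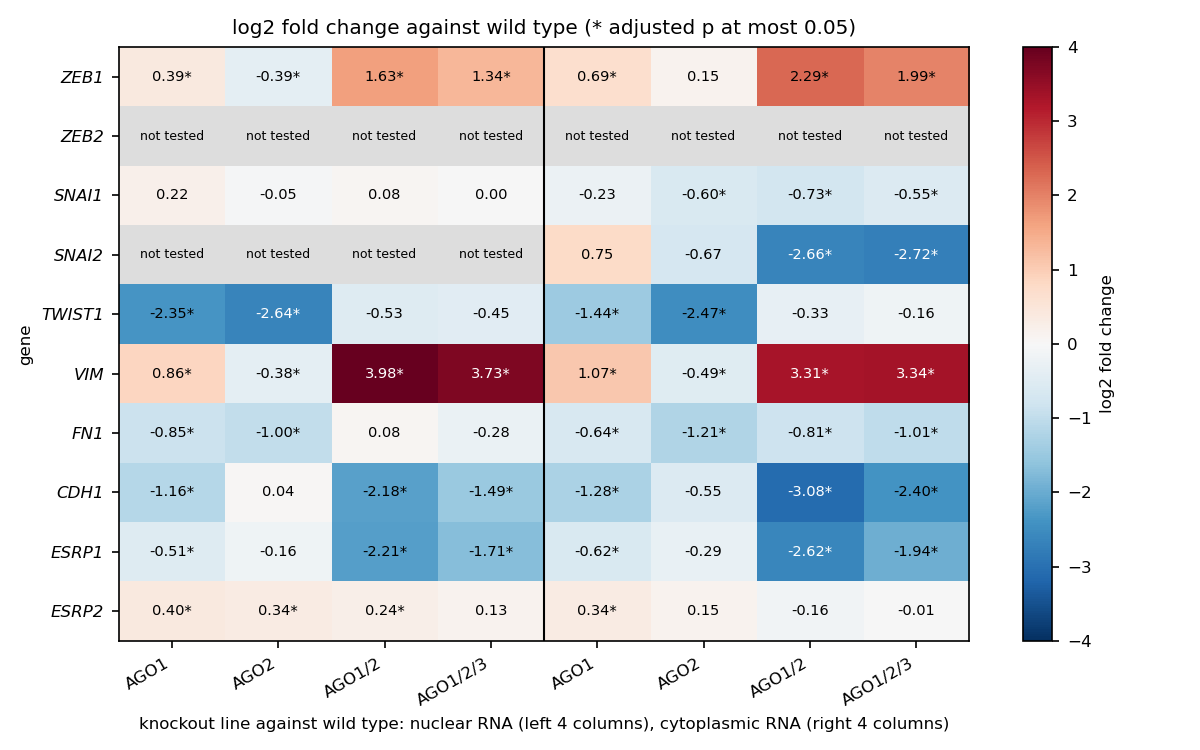
Log2 fold change against wild type from edgeR for the 10 genes (rows) in the 4 knockout lines, in nuclear RNA (left 4 columns) and cytoplasmic RNA (right 4 columns). Asterisks mark an adjusted p of at most 0.05 and grey cells genes that did not pass the filter on low counts. VIM and ZEB1 are positive and CDH1 and ESRP1 negative in the AGO1/2 and AGO1/2/3 columns of both fractions, and TWIST1 is most negative in the single knockouts.

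Read against all genes, many of these calls come from comparisons in which calls were common. Of the 8 genes tested in nuclei, 3 were higher and 4 lower in AGO1 cells, where 14.3% and 15.6% of all 18919 genes tested were called higher and lower. In AGO2 nuclei 1 was higher and 4 lower (background 20.2% and 19.9%), in AGO1/2 nuclei 3 and 2 (32.9% and 34.7%), and in AGO1/2/3 nuclei 2 and 2 (29.1% and 29.5%). For the cytoplasm 9 of the 10 genes were tested among 17605. There 3 were higher and 4 lower in AGO1 cells (background 4.28% and 8.13%), none and 4 in AGO2 cells (7.07% and 9%), 2 and 5 in AGO1/2 cells (23.9% and 25.4%), and 2 and 5 in AGO1/2/3 cells (18.6% and 20%). The double and triple knockouts had no larger share of nuclear calls among these genes than the AGO1 knockout, but the differences of ZEB1, VIM, CDH1 and ESRP1 were larger in them. Those 16 values stayed past the threshold in all 240 alternative fits, with a highest adjusted p of 0.0075. The comparisons of the 4 lines share their wild-type libraries, so their values are set side by side and their likeness is not counted as a result. With 3 libraries against 3, no exact two-sided permutation test can go below p = 0.1, the value given by each of the non-overlapping sets above.

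Direct comparisons between the edited lines do not use the wild-type libraries. Nuclear AGO1/2 cells differed from AGO1 cells by 3.12 (SE 0.11) for VIM, 1.24 (SE 0.11) for ZEB1, -1.03 (SE 0.25) for CDH1 and -1.70 (SE 0.17) for ESRP1, and from AGO2 cells by 4.36, 2.02, -2.22 and -2.05, all called. In the cytoplasm the corresponding values were 2.24, 1.60, -1.80 and -2.01 against AGO1 cells and 3.80, 2.14, -2.53 and -2.33 against AGO2 cells, again all called. The changes of the double knockout in these 4 genes were therefore larger than those of either single knockout. TWIST1 was higher in AGO1/2 than in AGO1 cells (1.82 in nuclei and 1.11 in cytoplasm) and than in AGO2 cells (2.11 and 2.15), and cytoplasmic SNAI2 lower (-3.41 and -1.99, of which the second was lost without AGO2 passage 8 or 9 or AGO1/2 passage 11, at -2.0 to -1.61). Of the 8 genes tested in nuclei, 4 were higher and 3 lower than in AGO1 cells (ESRP2 among them at -0.17, a call lost without any of these libraries but AGO1/2 passage 10, background 30.3% and 30.9%) and 4 and 2 relative to AGO2 cells (27.6% and 26.7%), and of 9 in cytoplasm 3 and 5 (27.8% and 26.4%) and 3 and 4 (23.1% and 22.7%).

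The triple knockout differed little from the double. None of 8 nuclear genes was called by edgeR (background 1.74% in each direction), although 5 had an unadjusted p below 0.05 and DESeq2 called ZEB1, VIM and ESRP1, at -0.31, -0.27 and 0.49. In the cytoplasm 1 of 9 was called, ESRP1, which was higher by 0.68 (SE 0.17, edgeR adjusted p = 0.036, background 2.47% higher and 2.48% lower). That call was lost in a fit of the 2 groups alone (0.69, adjusted p = 0.0942) and, at 0.54 to 0.70, without any of the libraries compared except AGO1/2 passage 11. Cytoplasmic ZEB1 was -0.30 (edgeR adjusted p = 0.0613), VIM 0.04 (adjusted p = 0.903) and CDH1 0.68 (adjusted p = 0.13), none called.

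**Figure D4:**
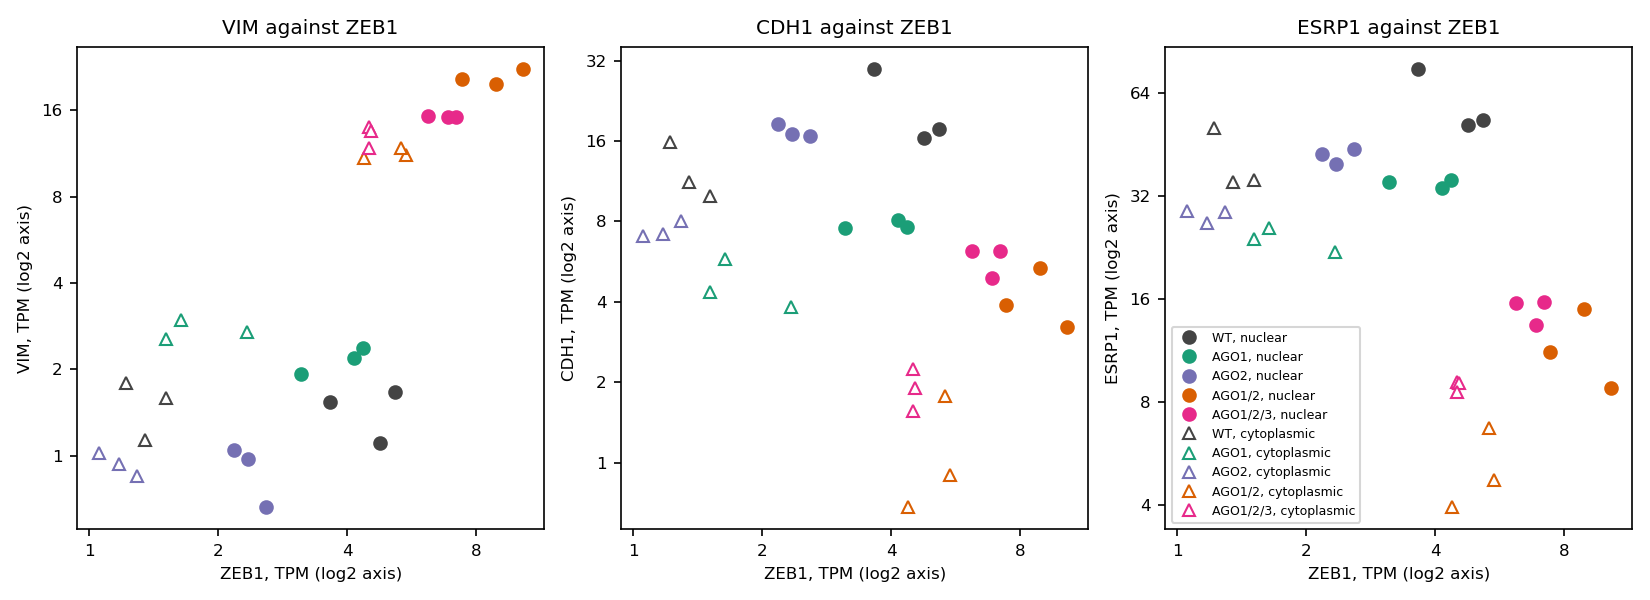
VIM, CDH1 and ESRP1 (vertical axes) against ZEB1 (horizontal axes) in the 30 libraries, in TPM on log2 axes, coloured by genotype, with filled circles for nuclear and open triangles for cytoplasmic libraries. The AGO1/2 and AGO1/2/3 libraries lie to the right within each fraction, high for VIM and low for CDH1 and ESRP1.

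Across the 30 libraries, with log2 CPM (counts scaled to library size) centred within each fraction, Pearson's r with ZEB1 was 0.963 for VIM, -0.954 for CDH1 and -0.969 for ESRP1, and it was -0.402 for SNAI1, 0.473 for TWIST1, 0.056 for FN1 and -0.331 for ESRP2. CDH1 and ESRP1 had an r of 0.958. These points share 5 lines, so the values describe differences between lines and carry no p. Of 11138 genes compared, the 3 most like ZEB1 were CLOCK (0.972), VIM (0.963) and CFLAR (0.959), those most like VIM were ANO1, FMNL3 and PAPSS2 (0.987, 0.986 and 0.978), and those most like CDH1 were S100A14, CLDN7 and EPHA1 (0.982, 0.979 and 0.976). ESRP1 was most like FRRS1, ZNF397 and EPHA1 (0.985, 0.982 and 0.982), TWIST1 like RUNX2, BMP4 and PRKD3 (0.909, 0.896 and 0.880), FN1 like MORC4, RAPH1 and NTN1 (0.896, 0.873 and 0.860), SNAI1 like BPNT1, GZF1 and ZNF627 (0.856, 0.852 and 0.848) and ESRP2 like NFKB1, IPO4 and NOB1 (0.882, 0.882 and 0.881).

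The fractions were compared first in wild-type cells. Of 10 genes tested, ZEB1 (0.71, SE 0.12), FN1 (0.55, SE 0.19) and ZEB2 (19 nuclear against 4 cytoplasmic reads) were called higher in nuclei relative to other genes, the FN1 call being lost without nuclear passage 29 (0.28) or cytoplasmic passage 27 or 28 (0.43 and 0.42), and SNAI1 (-0.96, SE 0.10) and VIM (-0.74, SE 0.16) lower, where 39.6% and 37.3% of 20104 genes were called higher and lower. With the culture as a replicate block, ESRP1 was added at -0.20 (edgeR adjusted p = 0.000604). The direction of this value turned on the TPM scale (0.57 on log2(TPM + 0.1)), where the median of all genes was 0.58.

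**Figure D5:**
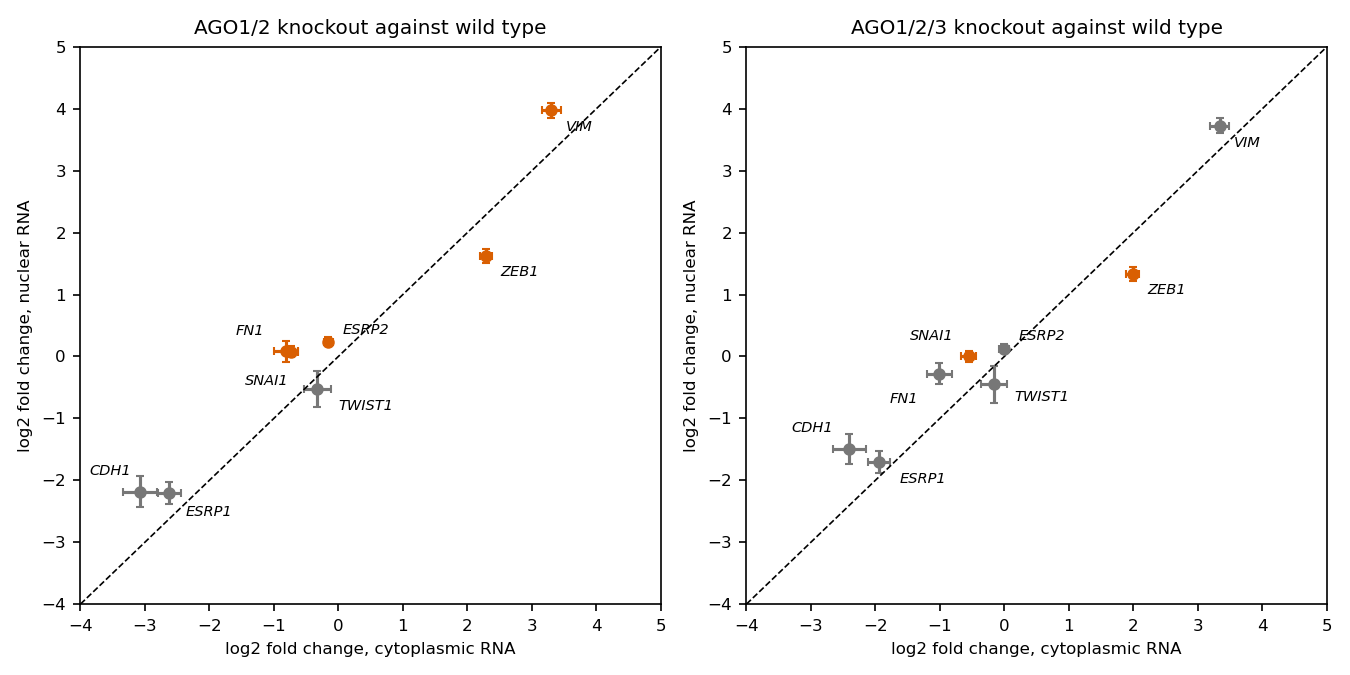
Nuclear (vertical axis) against cytoplasmic (horizontal axis) log2 fold change from wild type in the AGO1/2 (left) and AGO1/2/3 knockout (right), with standard errors as bars and a dashed line where both are equal. Orange marks genes whose nuclear and cytoplasmic effects differed (edgeR interaction, adjusted p at most 0.05). ZEB1 lies below the line in both panels and SNAI1 above it.

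The effect of a knockout differed between the fractions for some of these genes. In AGO1/2 cells the nuclear effect on ZEB1 was smaller than the cytoplasmic one by -0.74 (SE 0.16, edgeR adjusted p = 0.000571) and in AGO1/2/3 cells by -0.73 (SE 0.16, adjusted p = 0.00134). Counting protein-coding transcripts only, these differences were -0.34 (adjusted p = 0.349) and -0.41 (adjusted p = 0.288) and no longer called. The nuclear effect was above the cytoplasmic one for SNAI1 in AGO1/2 (0.74), AGO1/2/3 (0.47) and AGO2 cells (0.55), and in AGO1/2 cells for VIM (0.59), FN1 (0.82) and ESRP2 (0.31). In the fit of protein-coding transcripts only, SNAI1 in AGO1/2/3 (0.32) and AGO2 cells (0.38) and FN1 (0.62) were no longer called (edgeR adjusted p = 0.116, 0.164 and 0.0769). The only SNAI1 transcript is protein coding, so its own counts were unchanged and only the other genes and the scaling of that fit differed. SNAI1 in AGO1/2 cells, VIM and ESRP2 were still called there. ZEB1 in AGO2 cells was at -0.54 and not called (edgeR adjusted p = 0.0506), but was called by DESeq2 at -0.60 and with the culture as a replicate block at -0.53 (edgeR adjusted p = 0.013). Except for ZEB1 and the AGO1/2 value of SNAI1, each of these calls was lost without 1 library or another, including a wild-type library of passage 29 in every case (0.44 and 0.37 for SNAI1, 0.40 and 0.52 for VIM, 0.56 for FN1 and 0.25 for ESRP2). With that block 14 differences were called in place of 8, the others added being CDH1 in AGO2, AGO1/2 and AGO1/2/3 cells, ESRP1 in AGO1/2 and FN1 in AGO1/2/3 cells. Without it, 5 of 10 genes were called in AGO1/2 cells (background 36.5%), 2 in AGO1/2/3 cells (22.7%), 1 in AGO2 cells (5.76%) and none in AGO1 cells (0.662%, where SNAI1 and TWIST1 had an unadjusted p below 0.05 by edgeR and DESeq2 also called none). The make-up of the nuclear fraction also differed between lines. GAPDH, a cytoplasmic mRNA, was 1070 to 1380 TPM in wild-type nuclei, 2480 to 2770 in AGO1/2 and 1830 to 2140 in AGO1/2/3 nuclei, and MALAT1, a nuclear RNA, averaged 3040 TPM in wild-type nuclei and 1310 and 1360 in those lines, while in the cytoplasm GAPDH averaged 1960, 1490 and 1930 TPM. Their part in the nuclear results was not tested.

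The wider miR-200 and epithelial-mesenchymal lists put the 10 genes in context. Of 8 precursors and host genes of the miR-200 and miR-205 families only MIR200CHG, the host transcript of miR-200c and miR-141, had enough reads to be tested, and the hairpins had none. Mature microRNAs were not measured. MIR200CHG was 3.73, 3.03 and 3.43 TPM in wild-type cytoplasm, 0.907, 0.632 and 1.08 in AGO1/2 and 1.35, 1.45 and 1.64 in AGO1/2/3 cytoplasm, on 14 to 37 reads in the first 2 groups. Both knockouts lay below wild type, with falls of -1.55 (edgeR adjusted p = 0.00043) and -0.95 (adjusted p = 0.0129). In nuclei the values were -1.18 (edgeR adjusted p = 0.0029) and -0.61 (adjusted p = 0.085, not called).

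Among 22 other genes known as miR-200 targets 18 were tested, and more were called higher than lower in the double and triple knockouts, 11 against 2 in the nuclei of each line and 10 against 6 and 11 against 1 in the cytoplasm. Of all genes, 32.9% were called higher and 34.7% lower in AGO1/2 nuclei, 29.1% and 29.5% in AGO1/2/3 nuclei, 23.9% and 25.4% in AGO1/2 cytoplasm and 18.6% and 20% in AGO1/2/3 cytoplasm, the shares against which the counts of this and the following lists are to be read. Their median log2 fold changes were 0.504 and 0.386 in nuclei and 0.387 and 0.297 in cytoplasm, where the medians of all genes were -0.0588, -0.0331, -0.00868 and -0.0140. In AGO1 and AGO2 cells 3 were higher against 2 and 3 lower in nuclei, and none and 2 against 2 and 5 in cytoplasm. Of all genes 14.3% were higher and 15.6% lower in AGO1 nuclei, and 20.2% and 19.9% in AGO2 nuclei, so the nuclear counts are near these shares. The cytoplasmic shares were 4.28% and 8.13% in AGO1 cells and 7.07% and 9% in AGO2 cells. The largest called changes in AGO1/2/3 cells were those of ETS1, a transcription factor (1.43 in nuclei and 0.99 in cytoplasm), MSN, the actin linker moesin (1.23 and 0.63), PPM1F, a phosphatase (0.93 in cytoplasm), and, in the other direction, JAG1, a Notch ligand (-1.17 and -1.91), and KDR, a VEGF receptor with few reads (-2.38 in nuclei).

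Of 16 other transcription factors of the switch 11 were tested. In AGO1/2 nuclei 6 were lower and 2 higher and in AGO1/2/3 nuclei 4 and 1, where 34.7% and 29.5% of all genes were lower, so that the second count is close to the share over all genes. In cytoplasm 7 and 6 were lower (25.4% and 20% of all genes) and none and 1 higher. The medians were -0.573 and -0.252 in nuclei and -1.11 and -1.09 in cytoplasm, and did not change with GRHL2 set to its bound. GRHL2, an activator of epithelial genes, had 258 to 262 reads per library in wild-type nuclei, 0 to 3 in AGO1/2 and 3 to 13 in AGO1/2/3 nuclei, and in the cytoplasm 49 to 142 against 0 in all 6 libraries of both lines. Against a floor of 3 reads per library it was at least 55.0-fold lower in AGO1/2 and at least 53.9-fold lower in AGO1/2/3 cytoplasm. GRHL3 (-4.10 in nuclei and -4.07 in cytoplasm of AGO1/2/3 cells), GRHL1 (-1.17 in both) and OVOL1 (-1.39 in cytoplasm), which also act on the epithelial side, fell with it, and SOX9 rose in nuclei (0.98).

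Epithelial structural genes were divided. In the cytoplasm none of 22 was higher and 15 lower in AGO1/2 cells, and 3 were higher and 10 lower in AGO1/2/3 cells, with medians of -0.631 and -0.276, where 25.4% and 20% of all genes were lower. In nuclei 10 of 21 were higher and 7 lower in AGO1/2 (32.9% and 34.7% of all genes), and 11 and 6 in AGO1/2/3 cells (29.1% and 29.5%), the lower calls being no more frequent than over all genes, beside the nuclear rise of GAPDH given above. CLDN7, a claudin (-1.69 in AGO1/2/3 cytoplasm), PKP3, a plakophilin (-1.62), MARVELD3 (-1.53) and CLDN1, which had 0 reads in AGO1/2 and 2 to 28 in wild-type cytoplasm, fell. In nuclei MARVELD3 and PKP3 fell too (-1.14 and -1.08), whereas the keratins KRT19 and KRT8 were higher (1.37 and 1.22).

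Of 20 mesenchymal genes 11 passed the filter. Among these, 6 were higher and 1 lower in AGO1/2, and 6 and 2 in AGO1/2/3 nuclei, and 3 and 1 in the cytoplasm of either line, with medians of 0.838, 0.874, 0.161 and 0.337. Over all genes 32.9% and 29.1% were higher in those nuclei and 23.9% and 18.6% in cytoplasm, and the cytoplasmic counts are near these shares. A gene that is near 0 in wild type can pass the filter through the group where it is high, so these counts do not show that the list rose. The largest called changes in AGO1/2/3 cells were those of AXL, a receptor kinase (2.71 in nuclei and 2.36 in cytoplasm), S100A4 (2.46 and 1.84), SPARC (2.23 in nuclei) and the integrin ITGA5 (1.20 and 0.50), and CD44 was lower in cytoplasm (-0.38). S100A4 also differed in the single knockouts. Its mean was 56.5 TPM in nuclei and 102 in cytoplasm of wild-type cells, 136 and 225 in AGO2 cells, and 14.5 and 24.2 in AGO1 cells. SPARC was lower in both single knockouts, with nuclear means of 1.27 TPM in wild-type, 0.132 in AGO1 and 0.152 in AGO2 cells. In cytoplasm the SPARC means were 1.93, 0.0592 and 0.0886 TPM, and its AGO1/2 libraries ranged from 0.483 to 3.27 TPM.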

How the data were processed

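Nuclear and cytoplasmic RNA of 5 genotypes was sequenced by the authors as stranded, ribosomal-RNA-depleted libraries, 30 in all, and the binding (eCLIP) libraries were not analysed here. The authors deposited 1 Salmon table per library with estimated counts and TPM for 200401 transcripts. The submitters' processing notes name hg38, STAR 2.5.3a, Salmon 0.11.0 and DESeq2, and the study's methods give other STAR and Salmon versions. TPM sum to a fixed total in each library, so a change in a few abundant RNAs moves all others, and estimated counts of overlapping transcripts depend on the annotation that Salmon was given.

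Transcripts were matched by identifier to GENCODE release 44 (196040 matched) and summed to genes, and estimated counts were rounded. edgeR 4.0.16 (R 4.3.3) quasi-likelihood tests with TMM factors, filterByExpr (minimum count 10) and Benjamini-Hochberg adjustment over all genes tested were run on the 15 libraries of a fraction, and on all 30 for differences between fractions, so that those differences do not equal the subtraction of the single-fraction values. Alternatives used DESeq2 1.42.0, limma 3.58.1 on log2 TPM, other filters and scalings, protein-coding transcripts only, 2 groups only, replicate blocks and each library left out. The SE of an edgeR value was derived from its test, as the absolute log2 fold change divided by the square root of the F statistic. The edgeR script was tested on simulated data. Same-passage nuclear and cytoplasmic libraries deviated together in wild-type cells (r = 0.319, 0.327 and 0.705 over 11139 genes) but not in every passage of the edited lines (r from -0.025 to 0.557), so the paired values are given beside the results on fractions.

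The 10 genes and the other lists were chosen with earlier results of these data known. Of each list the 4 called genes with the largest change in AGO1/2/3 cells of each fraction were named, and for likeness the 3 genes with the highest r among genes of at least 5 CPM on average.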

Additional observations from a re-analysis of the deposited data

Results flagged for a closer look

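The effects of a knockout in nuclear and in cytoplasmic RNA differed by a test of the difference itself (edgeR interaction in a fit of all 30 libraries) in 8 cases, given as nuclear minus cytoplasmic log2 fold change. ZEB1 had a smaller nuclear effect in AGO1/2 cells (-0.74, adjusted p = 0.000571, from 1.63 in nuclei and 2.29 in cytoplasm) and in AGO1/2/3 cells (-0.73, adjusted p = 0.00134, from 1.34 and 1.99). In protein-coding transcripts only these were -0.34 (edgeR adjusted p = 0.349) and -0.41 (adjusted p = 0.288), neither called. SNAI1, which encodes Snail, was called lower in cytoplasm and not called in nuclei, with differences of 0.74 in AGO1/2 (edgeR adjusted p = 0.000207), 0.47 in AGO1/2/3 (adjusted p = 0.0178) and 0.55 in AGO2 cells (adjusted p = 0.023). In protein-coding transcripts only, the SNAI1 value in AGO1/2 cells was 0.47 and still called (edgeR adjusted p = 0.0134). Those in AGO1/2/3 (0.32, edgeR adjusted p = 0.116) and AGO2 cells (0.38, adjusted p = 0.164) were not called. The only SNAI1 transcript is protein coding, so these SNAI1 values moved with the other genes and the scaling of that fit. In AGO1/2 cells VIM had a larger nuclear than cytoplasmic rise (0.59, edgeR adjusted p = 0.0187), FN1 was lower in cytoplasm and not called in nuclei (0.82, adjusted p = 0.0148), and ESRP2 was called higher in nuclei and not called in cytoplasm (0.31, adjusted p = 0.0222). Without a wild-type library of passage 29 the calls of SNAI1 in AGO2 and AGO1/2/3 (0.44 and 0.37) and of VIM (0.40), FN1 (0.56) and ESRP2 (0.25) were lost. Nuclear GAPDH and MALAT1 also differed between these lines, and their part in the differences was not tested. With 3 libraries in each group no test for a single outlying library was made.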

How the results depend on the processing

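The 16 values of ZEB1, VIM, CDH1 and ESRP1 in the AGO1/2 and AGO1/2/3 knockouts kept their direction and their call in all 240 alternative fits. Of the knockout comparisons with wild type 21 of 32 nuclear and 25 of 36 cytoplasmic values of the 10 genes were called, and 19 to 21 and 22 to 25 when 1 library was left out. Between edited lines the counts were 13 in nuclei (12 to 14) and 16 in cytoplasm (15 to 17), and between wild-type fractions 5 (4 to 5). Differences between fractions were less stable: 8 were called, 4 to 10 with 1 library left out (4 without cytoplasmic wild-type passage 29), 14 and 13 with limma on log2(TPM + 0.1) and log2(TPM + 1), 3 with protein-coding transcripts only, and 14 with the culture as a replicate block, which added ZEB1 and CDH1 in AGO2 cells, CDH1 and ESRP1 in AGO1/2 and CDH1 and FN1 in AGO1/2/3 cells. With passage number as a replicate block, AGO1/2 against AGO2 cells gave 6 calls in nuclei, as without it, and 5 in place of 7 in cytoplasm, where these passages share only a number (r from -0.318 to -0.038).

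Some directions turned with the scale, and the cause was not tested. Nuclear ZEB1 in AGO1 cells was -0.18 on log2(TPM + 1) and -0.22 on log2(TPM + 0.1), the difference between fractions of ZEB2, on few reads, -0.1 and -0.69 in AGO2 and -0.11 and -0.77 in AGO1/2/3 cells, and in wild-type nuclei against cytoplasm ESRP1 was 0.56 and 0.57, ESRP2 0.8 and 0.87, and ESRP2 0.24 with length-scaled counts. The number of genes called in AGO1/2/3 against AGO1/2 nuclei was 659 with edgeR, 1979 with DESeq2, 113 in a fit of 2 groups and 31 to 3153 with 1 library left out, and in cytoplasm 872, 2117, 1 and 5 to 2312. In cytoplasm 2185 genes were called in AGO1 and 2828 in AGO2 cells, 832 and 1348 with 2 groups, and 5651 in AGO1 nuclei became 3747. Genes whose effect differed between fractions numbered 133 in AGO1, 1158 in AGO2 and 4567 in AGO1/2/3 cells, and 1261, 3623 and 7011 with the replicate block. Wild-type libraries were the shallowest, and ZEB2, SNAI2 and TWIST1 rest on few reads.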
